A study of Homo sapiens with 12 samples.

Results

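The feedback genes of the ERK pathway were followed in human proximal tubular cells (HPTC) under IL-1β or empagliflozin (Empa). They comprised 10 genes, namely the dual-specificity phosphatases DUSP1, DUSP4, DUSP5, DUSP6 and DUSP10, the Sprouty genes SPRY1, SPRY2 and SPRY4, and the Spred genes SPRED1 and SPRED2. Members were chosen by name: every non-control probe that the array annotation assigns to one of these symbols was taken. This gave 12 of the 34127 probes and 10 of the 25992 gene names on the array, and all 10 were among the 15717 genes tested. HK-2 is a proximal tubular line immortalized with papillomavirus genes, and RPTEC/TERT1 is one immortalized with telomerase, so both are cultured, immortalized cells. All cells were starved for 24 h and then kept for a further 24 h without a ligand (control), with IL-1β (10 ng/mL), a pro-inflammatory cytokine, or with Empa (500 nM), an inhibitor of the glucose transporter SGLT2. No array carried cells given both agents. There were 12 arrays on 4 slides, with 2 biological replicates for each of the 6 groups of line and treatment. A slide carried all 3 conditions of 1 line and replicate number, and is called here by its label, such as HK-2 slide 1.

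ERK is a mitogen-activated protein kinase (MAPK) that carries signals from growth factor and cytokine receptors to the nucleus through RAS, RAF and MEK. Many of the genes it switches on encode its own inhibitors: DUSP proteins remove the activating phosphates from MAPKs, while Sprouty and Spred proteins act further upstream, on the route from receptor to RAF. In tubular cells the pathway is known for its part in growth, repair and the response to inflammatory stimuli. DUSP5 and DUSP6 act mainly on ERK, DUSP1 and DUSP4 on several MAPKs, and DUSP10 mainly on the stress kinases JNK and p38.

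Levels are given as log2 signal relative to the 75th percentile of the array, so 0 stands for that percentile. The percentile itself lay between 298 and 765 signal units, and the share of probes well above background ran from 52.7% to 63.1%. Line labels came from the sample titles, whereas another label field names HK-2 throughout. Control arrays of HK-2 slide 1 and RPTEC/TERT1 slide 2 correlated with r = 0.984 across 15324 probes, those of HK-2 slide 2 and RPTEC/TERT1 slide 1 with r = 0.973, and those sharing a line label with r = 0.880 and r = 0.875. Probes are not independent replicates. Any statement on a line therefore means the arrays labelled with it, while means over the 4 slides do not depend on these labels. Among markers of the tubule and of epithelium, PAX8, AQP1, SLC5A2, EPCAM, KRT8 and KRT18 had signal well above background throughout. HNF4A, SLC5A1 and SLC22A6 were so on 0 arrays. CDH1 and ANPEP were well above background on 6 arrays each, all of them on HK-2 slide 1 and RPTEC/TERT1 slide 2. Of 11 markers of fibroblasts, endothelium and leukocytes, 3 (CDH5, PTPRC and CD68) passed that mark on all 12 arrays and 2 (COL1A2 and PDGFRB) on none. Known IL-1β targets responded: all 7 tested genes of the check list (NFKBIA, IL6, CXCL8, ICAM1, SOD2, BIRC3 and CXCL1) were higher on every slide. The median log2 difference of the 7 was 4.31. Of these, 6 passed the test and ICAM1, at 2.12, did not. ICAM1, SOD2 and CXCL1 are also in a list that the study selected on the same arrays for rising with IL-1β and falling with Empa. Their rise is thus not independent of that choice.

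Each of the 12 probes of the feedback genes was well above background on every array, and none was saturated. Their values are thus not bounds, though the dim ones rest on the background that was subtracted. IL-1β raised DUSP5 and DUSP10, by 5.07-fold and 5.09-fold in the mean of the 4 slides, and 8 of the 10 genes did not pass the test. These means join unlike slides: the folds ran from 2.37 to 11.3 for DUSP5 and from 1.30 to 22.1 for DUSP10. Both genes had their larger folds on HK-2 slide 1 and RPTEC/TERT1 slide 2, whose control arrays correlated with r = 0.984. The DUSP10 call depended on single arrays and on the processing, as given with its values. With Empa none of the 10 passed the adjusted threshold, which does not show that none changed. Calls were made by limma with the slide as a block, at an adjusted p under 0.05 over all genes tested. Each SE given with a mean is that of this fit. It draws on the residual spread of both treatments and on all genes, and is not the spread of the 4 differences. At this threshold 12.4% of all genes were called with IL-1β, 4.52% higher and 7.91% lower, beside 2 of 10 feedback genes, both higher. With Empa, 0.00636% of all genes were called, a single gene. At an unadjusted p under 0.05 the counts were 4 of 10 feedback genes with IL-1β (28.2% of all genes) and 1 of 10 with Empa (12% of all genes). In RNA of whole cultures, fewer cells with a transcript and less of it per cell cannot be told apart.

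**Figure D1:**
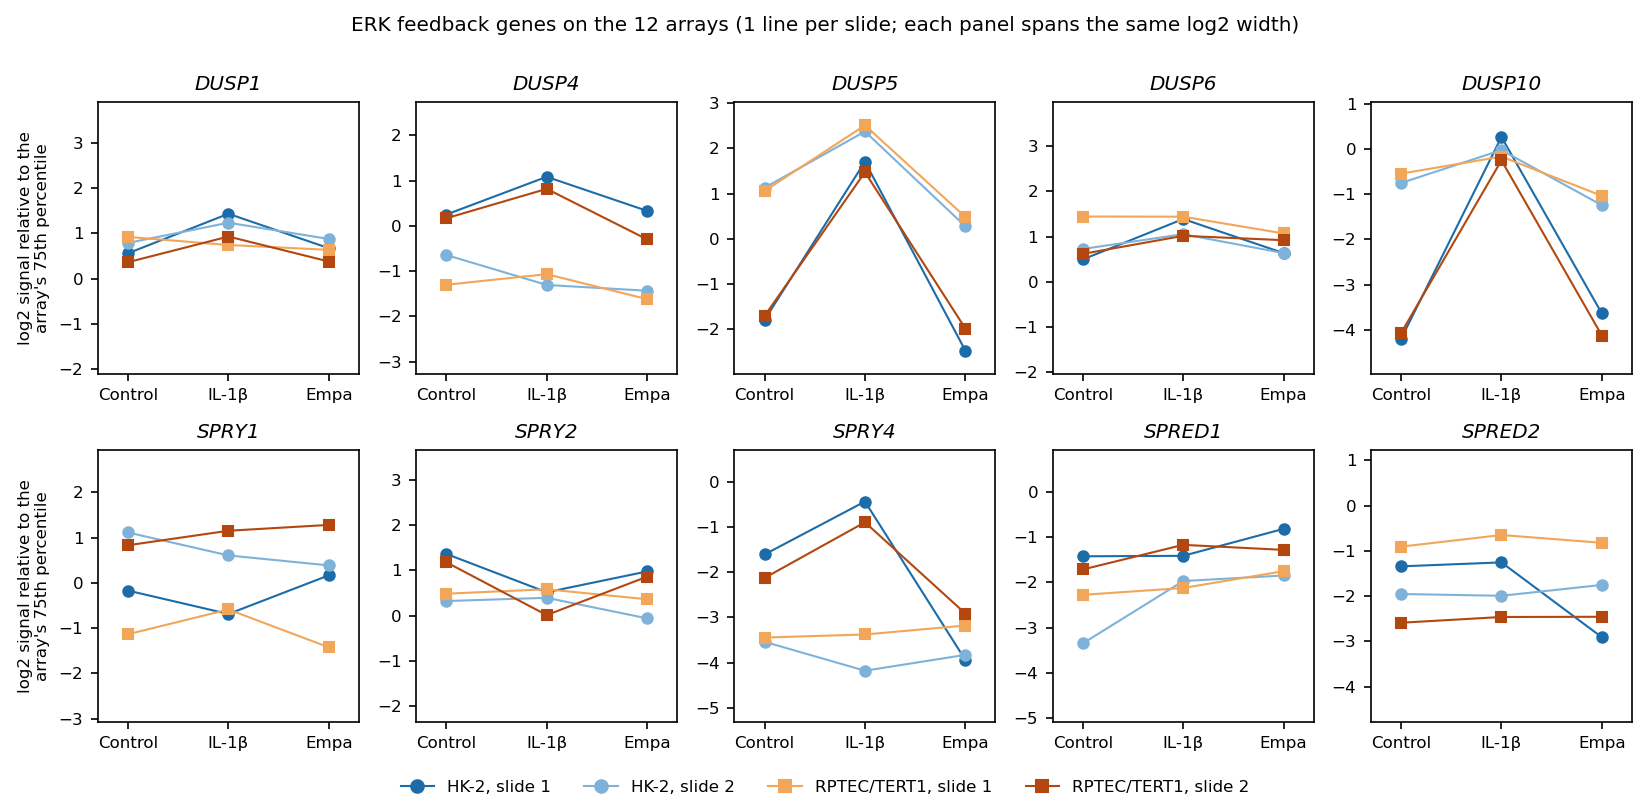
Log2 signal relative to the array's 75th percentile (y axis) on the control, IL-1β and Empa array (x axis) of each slide, 1 line per slide and 1 panel per gene, for the brighter probe of SPRY1 and SPRY4. DUSP5 and DUSP10 peaked with IL-1β on every slide, from control levels that differed between slides by up to 2.92 and 3.65, while DUSP1 and DUSP6 stayed within a narrow band.

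DUSP5, a nuclear phosphatase specific for ERK, rose with IL-1β on all slides. Its probe lies at chr10:112270900-112270959 (hg19, plus strand). In the order HK-2 slides 1 and 2, then RPTEC/TERT1 slides 1 and 2, the control arrays read -1.79, 1.13, 1.06 and -1.71 for DUSP5. The IL-1β arrays read 1.70, 2.37, 2.51 and 1.47. Every IL-1β array lay above every control array, the closest being 1.47 against 1.13. Within the slides the DUSP5 differences were 3.50, 1.24, 1.45 and 3.18, or 11.3-fold, 2.37-fold, 2.73-fold and 9.05-fold. The mean difference was 2.34 ± 0.39 (SE of the limma fit, adjusted p = 0.00647), and the SD of the 4 differences was 1.16. DUSP5 thus rose most where its control level was low, though both quantities share the control array, and control levels spanned 2.92 log2 units against 1.04 under IL-1β. The call was lost without RPTEC/TERT1 slide 2 (mean 2.06, adjusted p = 0.0671). With all slides it was lost in the fit without the replicate block (adjusted p = 0.635) and by the methods' t-test (0.334). It was also lost with the slides of replicate 1 or 2 alone (0.320 and 0.183).

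With Empa, DUSP5 read -2.47, 0.28, 0.48 and -1.98 in the same order. Each of these lay below the control of its own slide, by 0.68, 0.85, 0.57 and 0.28 log2 units, although the control and Empa groups overlapped. The mean difference was -0.59 ± 0.39 (SE, 4 slides), with an adjusted p of 0.539 (limma) and a 95% interval from -1.47 to 0.28, so it did not pass the test. Of all genes tested, 13.9% were lower with Empa on all 4 slides, and 1.32% combined this with a rise under IL-1β on all 4. DUSP5 was the only feedback gene with both. It is also in a list that the study selected for this combination on the same arrays, so its directions here are not independent evidence.

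DUSP10, a phosphatase of JNK and p38, had the widest range of differences among the 10 genes. Its probe lies at chr1:221875773-221875832 (hg19, minus strand). Its control arrays read -4.20, -0.76, -0.55 and -4.07, again in the order HK-2 slides 1 and 2 and RPTEC/TERT1 slides 1 and 2. Its IL-1β arrays read 0.26, -0.03, -0.17 and -0.26, all above every control array. DUSP10 therefore reached a similar level on the 4 slides: the IL-1β arrays spanned 0.52 log2 units and the controls 3.65. The differences were 4.46 on HK-2 slide 1 (22.1-fold) and 3.82 on RPTEC/TERT1 slide 2 (14.1-fold), but 0.73 on HK-2 slide 2 (1.66-fold) and 0.38 on RPTEC/TERT1 slide 1 (1.30-fold). The control arrays of HK-2 slide 1 and RPTEC/TERT1 slide 2 read only 19.5 and 17.7 signal units, so the large folds rest on the background subtracted. The SD of the 4 differences was 2.09, and the call rested on a mean of 2.35 ± 0.64 (SE of the limma fit, adjusted p = 0.0442). It was lost when any single array was left out except an IL-1β array of HK-2 slide 2 or RPTEC/TERT1 slide 1, with adjusted p up to 0.154. It was also lost without HK-2 slide 1 (adjusted p = 0.182), RPTEC/TERT1 slide 2 (0.230) or HK-2 slide 2 (0.0634), with the slides of replicate 1 or 2 alone (0.544 and 0.276) and by the methods' t-test (0.418). The adjusted p was 0.712 without the replicate block, 0.106 with a random block and 0.126 without a filter on dim probes. The DUSP10 mean was 1.39 (adjusted p = 0.0513) after normexp background correction and 1.10 (adjusted p = 0.0316) in the authors' table. Summed over the 11 markers of other cell types, the linear level relative to the 75th percentile rose with IL-1β on the slides with the large DUSP10 differences. There it went from 1.07 to 2.38 and from 0.751 to 1.85, and on the others from 9.33 to 9.21 and from 8.96 to 8.88. The brightest markers govern such a sum: DCN and CD68 reached log2 levels of 2.85 and 1.09, and no other marker exceeded -1.59. The part of these markers in the DUSP10 and DUSP5 results was not tested.

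With Empa, DUSP10 read -3.64, -1.25, -1.04 and -4.13. It lay above control on HK-2 slide 1, by 0.56, and below on the other slides, by 0.49, 0.49 and 0.05. The mean of -0.12 ± 0.64 (SE, 4 slides) had a 95% interval from -1.56 to 1.33 and did not pass the test (limma, adjusted p = 0.946).

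Promoter sequence is shown for DUSP10, the called gene with an entry in the reference table, and for DUSP1 and SPRY2, whose values ran most closely with and against those of DUSP10 among members with an entry. RefSeq promoters (GRCh38.p14) were listed for 8 of the 10 genes with 13 start sites, and not for DUSP4 and DUSP5. The 250 bases before each start were searched on both strands for AP-1 (TGANTCA), the cyclic AMP response element CRE (TGACGTCA), the core of the ETS site (CCGGAA), the CArG box of serum response factor and the NF-κB site. Capitals mark a match, and each sequence runs 5′ to 3′ toward the start. DUSP10 lies on the minus strand at chr1:221742090-221742339, DUSP1 on the minus strand at chr5:172771196-172771445 and SPRY2 on the minus strand at chr13:80341127-80341376.
DUSP10, first start: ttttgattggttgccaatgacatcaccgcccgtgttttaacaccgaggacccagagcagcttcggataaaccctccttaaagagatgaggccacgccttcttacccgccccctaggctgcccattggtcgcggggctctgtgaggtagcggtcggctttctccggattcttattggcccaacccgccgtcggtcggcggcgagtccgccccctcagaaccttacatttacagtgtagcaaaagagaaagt
DUSP1: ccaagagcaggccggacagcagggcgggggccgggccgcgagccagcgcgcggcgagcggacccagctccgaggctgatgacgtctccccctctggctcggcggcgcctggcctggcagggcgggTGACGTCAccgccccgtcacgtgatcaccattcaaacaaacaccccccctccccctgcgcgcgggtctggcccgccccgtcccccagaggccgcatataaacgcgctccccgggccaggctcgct
SPRY2, first start: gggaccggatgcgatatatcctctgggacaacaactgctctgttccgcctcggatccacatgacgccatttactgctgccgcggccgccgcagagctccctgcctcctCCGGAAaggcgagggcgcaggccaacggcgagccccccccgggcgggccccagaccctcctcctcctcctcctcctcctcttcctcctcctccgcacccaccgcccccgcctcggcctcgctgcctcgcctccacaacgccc
CRE was found in 1 of the 13 windows, that of DUSP1, against 1.65% of 35116 promoters. ETS was found in 2 of 13, in SPRY2 above and in one of the SPRY1 starts, against 14.5%. AP-1, CArG and NF-κB had 0 matches in the 13 windows, against 6.57%, 1.16% and 5.21% of all promoters. The first DUSP10 window thus has no capitals, which says only that these letters are absent from it.

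DUSP1, an early-response phosphatase of several MAPKs, stayed within 1.07 log2 units on the 12 arrays. Its controls read 0.56, 0.79, 0.92 and 0.37 and its IL-1β arrays 1.44, 1.24, 0.75 and 0.93. Higher values with IL-1β were seen on 3 slides, and on RPTEC/TERT1 slide 1 the control was higher by 0.18. The mean difference of 0.43 ± 0.18 (SE, 4 slides) had an unadjusted p of 0.0410 and an adjusted p of 0.157 (limma), and did not pass. DUSP6, the cytoplasmic phosphatase of ERK, behaved alike in size. Its IL-1β differences were 0.89, 0.33, -0.00 and 0.40, with a mean of 0.40 ± 0.18 (SE, 4 slides) and an adjusted p of 0.176 (limma). The Empa difference farthest from 0 for either gene was -0.37, for DUSP6 on RPTEC/TERT1 slide 1. The mean Empa differences were -0.02 for DUSP1 and -0.01 for DUSP6, with 95% intervals from -0.42 to 0.39 and from -0.41 to 0.40.

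DUSP4, a nuclear phosphatase of ERK and other MAPKs, split by slide. On HK-2 slide 1 and RPTEC/TERT1 slide 2 its control, IL-1β and Empa arrays read 0.25, 1.08 and 0.33, and 0.17, 0.82 and -0.30. On HK-2 slide 2 and RPTEC/TERT1 slide 1 they read -0.64, -1.31 and -1.43, and -1.30, -1.07 and -1.62. IL-1β thus went with a higher DUSP4 level on 3 slides and a lower one on HK-2 slide 2. The mean differences were 0.26 ± 0.24 with IL-1β (SE, 4 slides; limma, adjusted p = 0.508) and -0.37 ± 0.24 with Empa (adjusted p = 0.527).

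**Figure D2:**
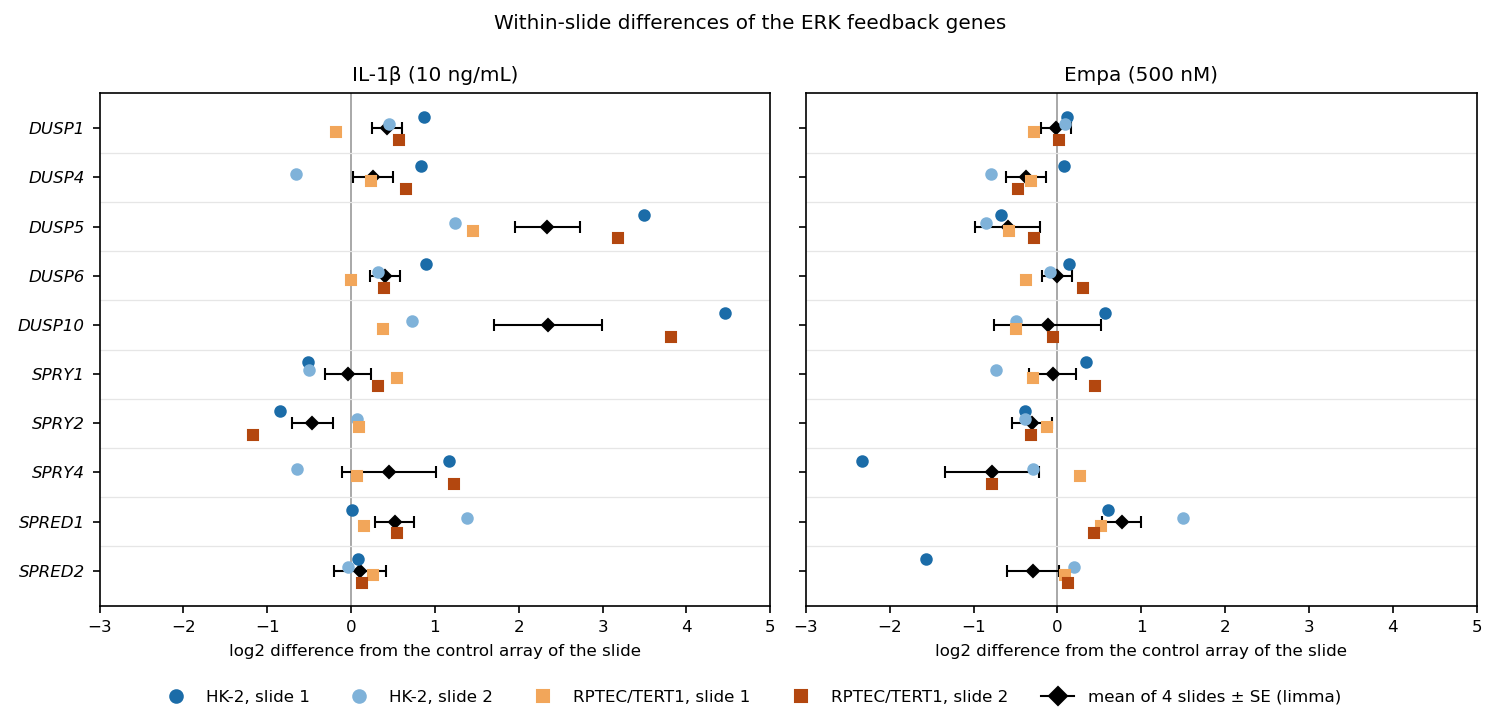
Log2 difference between the treated and the control array of a slide (x axis) for each gene (y axis), with IL-1β on the left and Empa on the right; colored points are the 4 slides and diamonds the mean ± SE from limma. With IL-1β, DUSP5 and DUSP10 lay to the right of 0 on all slides with means of 2.34 and 2.35, and with Empa only SPRED1 was higher on all slides.

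The Sprouty genes encode membrane-associated inhibitors of signaling between receptor tyrosine kinases and RAF. SPRY2 was the single feedback gene with a mean below -0.1 under IL-1β. Its control arrays read 1.37, 0.32, 0.49 and 1.18 and its IL-1β arrays 0.52, 0.40, 0.58 and 0.01, so the groups overlapped. SPRY2 was lower by 0.85 on HK-2 slide 1 and by 1.17 on RPTEC/TERT1 slide 2, and higher by 0.07 and 0.10 on the other slides. The mean of -0.46 ± 0.24 (SE, 4 slides) did not pass the test (limma, adjusted p = 0.250). With Empa, SPRY2 was lower on all 4 slides, by 0.39, 0.38, 0.12 and 0.32, with a mean of -0.30 ± 0.24 (SE, 4 slides) and an adjusted p of 0.602 (limma).

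SPRY4 was read by a pair of probes, at chr5:141690571-141690630 and chr5:141694487-141694546 (hg19, minus strand), and the brighter one, which is the first (NM_030964), represented it in the fit. With that probe the IL-1β differences were 1.17, -0.64, 0.07 and 1.23, and the Empa differences -2.33, -0.29, 0.27 and -0.79. For this brighter probe, but not for the second one, the widest margins in both directions were thus on HK-2 slide 1 and RPTEC/TERT1 slide 2. The mean differences of 0.46 ± 0.56 and -0.78 ± 0.56 (SE, 4 slides) did not pass the test (limma, adjusted p = 0.640 and 0.568). The Empa mean of SPRY4 was -0.15 without the Empa array of HK-2 slide 1, -0.19 in the authors' table and -0.20 after normexp, and the IL-1β mean was -0.0377 without the IL-1β array of HK-2 slide 1. The second probe (NM_001293289) gave 0.60, -0.61, -0.04 and 0.44 with IL-1β and 0.24, -0.75, -0.15 and -1.11 with Empa. The probes disagreed in sign on HK-2 slide 1 with Empa, where the first gave -2.33, from an Empa array of 20.8 signal units, and the second 0.24. They also did so on RPTEC/TERT1 slide 1, with Empa (0.27 and -0.15) and with IL-1β (0.07 and -0.04).

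SPRY1 was also read by a pair of probes, at chr4:124318918-124318977 and chr4:124324494-124324553 (hg19, plus strand), which disagreed. The first and brighter one (NM_001258038) gave IL-1β differences of -0.52 and -0.51 on the HK-2 slides and of 0.55 and 0.32 on the RPTEC/TERT1 slides. The other (NM_199327) gave 0.25, -0.00, 0.66 and 0.09. The mean difference of the brighter probe was -0.04 ± 0.28 (SE, 4 slides; limma, adjusted p = 0.944), and 0.01 after quantile normalization. With Empa its mean was -0.06 ± 0.28, with 2 slides higher and 2 lower.

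The Spred genes encode Sprouty-related proteins that hold RAS and RAF inactive. SPRED1 was higher than control on all 4 slides with either agent. Its control arrays read -1.43, -3.35, -2.28 and -1.72, its IL-1β arrays -1.42, -1.97, -2.13 and -1.17, and its Empa arrays -0.82, -1.85, -1.76 and -1.28. The differences were 0.01, 1.38, 0.15 and 0.54 with IL-1β and 0.61, 1.50, 0.52 and 0.43 with Empa, and both treated groups overlapped the controls. Both sets of differences share the control arrays, and the control of HK-2 slide 2 was the lowest of the 12. With Empa the mean was 0.77 ± 0.23 (SE, 4 slides), the 95% interval 0.24 to 1.29 and the unadjusted p 0.00923, but the adjusted p was 0.308 (limma). With IL-1β the mean of 0.52 ± 0.23 had an adjusted p of 0.182 (limma).

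SPRED2 changed little within slides apart from 1 array. Its IL-1β differences lay between -0.04 and 0.26, with a mean of 0.11 ± 0.31 (SE, 4 slides; limma, adjusted p = 0.854). With Empa it was lower by 1.57 on HK-2 slide 1 and higher by 0.20, 0.08 and 0.13 on the others. The mean of -0.29 ± 0.31 did not pass the test (limma, adjusted p = 0.696).

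Counted by slides, 3 of the 10 genes (DUSP5, DUSP10 and SPRED1) were higher with IL-1β on all 4 slides, against 15% of all genes, and 0 were lower on all 4, against 24.9%. With Empa, SPRED1 was higher on all 4 (12.5% of all genes), and DUSP5 and SPRY2 were lower on all 4 (13.9%). Without regard to direction, 3 of 10 kept 1 sign on all 4 slides with IL-1β (39.9% of all genes) and 3 of 10 with Empa (26.4%). An exact two-sided sign-flip permutation test over 4 slides cannot pass the threshold. The median of the 10 mean differences was 0.42 with IL-1β and -0.20 with Empa. Over all genes tested the medians were -0.11 and -0.02, and the former was -0.04 after quantile normalization.

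The labelled lines were compared in the same way. No feedback gene passed the test for a line difference in the IL-1β effect, in the Empa effect or in control cells (limma, adjusted p of 1.00 for all 10 in each). Over all genes 0 passed as well, with 1.73%, 0.98% and 1.09% at an unadjusted p under 0.05. Since arrays of different line labels resembled each other more than those sharing a label, these tests compare labels. Within each line label the 2 slides differed in the IL-1β effect on DUSP10 by 3.74 (HK-2) and 3.44 (RPTEC/TERT1), and on DUSP5 by 2.25 and 1.73.

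**Figure D3:**
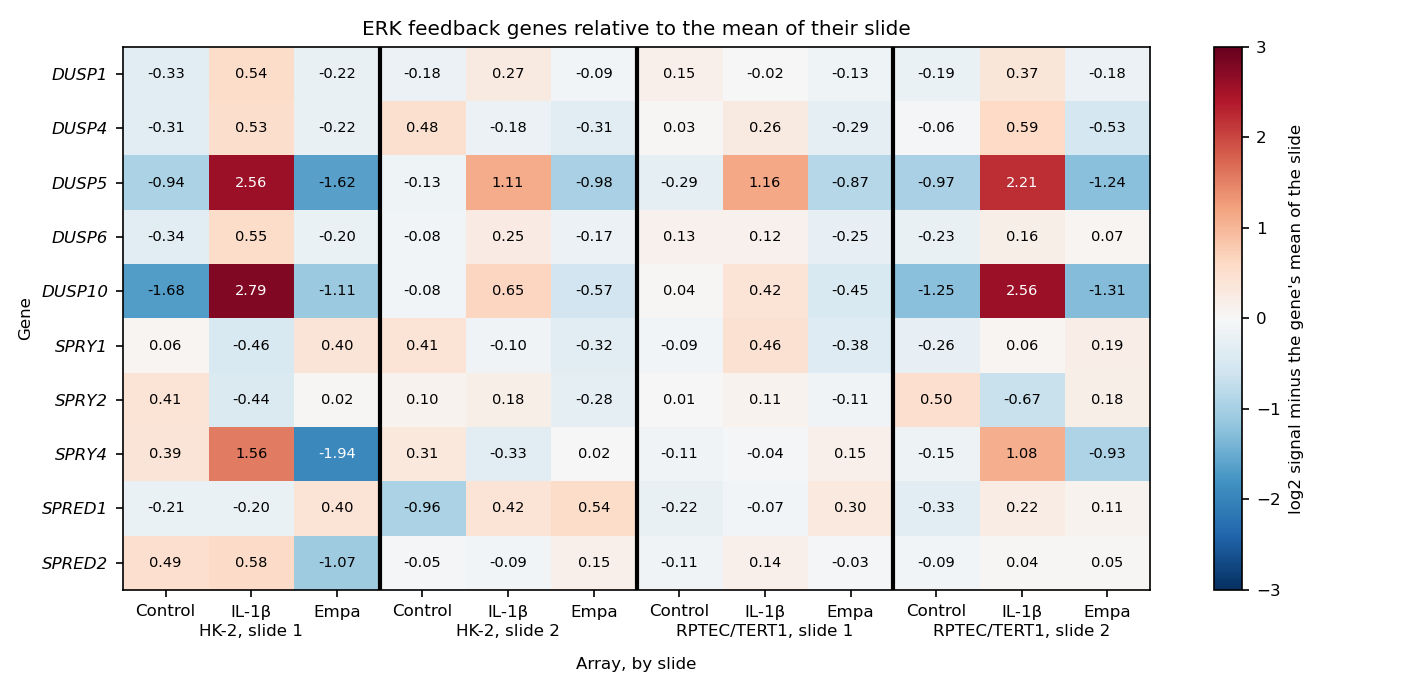
Log2 signal of each gene (rows) on each array (columns, grouped by slide) minus the gene's mean over the 3 arrays of the slide; red is above and blue below that mean. The IL-1β columns of HK-2 slide 1 and RPTEC/TERT1 slide 2 show DUSP5 at 2.56 and 2.21 and DUSP10 at 2.79 and 2.56, with SPRY2 below its slide mean in both.

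Values relative to the slide mean were compared between the genes over the 12 arrays. DUSP5 and DUSP10 had r = 0.95, DUSP1 and DUSP10 r = 0.94, and DUSP1 and DUSP6 r = 0.90, whereas SPRY2 and DUSP10 had r = -0.78. DUSP4 was less close to the other phosphatases, from r = 0.55 with DUSP6 to r = 0.80 with DUSP10. SPRY4 reached r = 0.72 with DUSP5 and r = 0.81 with SPRED2. Both SPRY4 and SPRED2 had their lowest value on the Empa array of HK-2 slide 1 (-1.94 and -1.07). There the second SPRY4 probe lay 0.24 above control, and the weight of that array in these r was not tested. The 12 points of each r share slides, treatments and scaling, and are given as a description. Among 12606 other genes well above background on all arrays, those closest to DUSP10 were ERAP1, a peptidase of antigen processing (r = 0.996), and BMP2, a growth factor of the TGF-β family (r = 0.996), which rose with IL-1β by 1.34 and 2.61. Closest to DUSP5 were C9orf16 (r = 0.993) and SLCO2A1, a prostaglandin transporter (r = 0.992), with IL-1β differences of 1.09 and 2.70. All 4 passed the test (limma, adjusted p between 0.00146 and 0.0386). They were chosen for likeness to called genes on these same arrays, so this is not separate evidence. C9orf16 and SLCO2A1 are, like DUSP5, also in the list selected by the study on these arrays.

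The other members had these closest genes over the same arrays. DUSP1 was nearest to PRKAG2 and SNX10, DUSP4 to SH3BGRL3 and AK092494, and DUSP6 to MRPL44. SPRY1 was nearest to ATXN8 and ZNF276, SPRY2 to CC2D2A and INPP4B, and SPRY4 to ELF3 and CC2D1B. SPRED1 was nearest to SRGAP2C and CISD2, and SPRED2 to SETD3 and TCP1. Their r lay between 0.904 for SPRY1 with ZNF276 and 0.996 for SPRED2 with SETD3, and SNX10 alone among them passed the test with IL-1β (1.02, limma adjusted p = 0.0388).

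The genes around the feedback loop were read as lists, beside the 12.4% of all genes called with IL-1β. Of 20 tested genes of the ERK cascade itself, IL-1β raised 2 (10%) and lowered none, with a median difference of 0.08. These were MAP3K8, a kinase that activates MEK in inflammatory signaling, at 2.74 ± 0.28 (SE, 4 slides; limma, adjusted p = 0.000914), and the phosphatase PTPN11 at 0.53 ± 0.15 (adjusted p = 0.0480). The kinases ERK1 and ERK2, RAF and MEK were among the 18 that did not pass. Other negative regulators of MAPK signaling gave 1 of 16 (6.25%), ERRFI1, an inhibitor of the EGF receptor, at 0.82 ± 0.22 (adjusted p = 0.0394), with a list median of 0.12.

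Genes known to be switched on by ERK moved both ways. Of 20 tested, 6 (30%) passed, 4 higher and 2 lower with IL-1β, with a median of 0.33. IER3 (1.79), FOSL1 (1.59) and MYC (0.93) rose, FOSL1 being well above background on 3 of 4 control arrays. EGR2 was called higher, but was well above background on 2 of 4 control and 3 of 4 IL-1β arrays, so no size is given. EGR1 fell by 1.85 on the log2 scale. FOS was called lower (limma, adjusted p = 0.00393), but was well above background on 1 control array and on 0 IL-1β arrays, so no size is given for it either. FOSL1 is, like DUSP5, in the list selected by the study on these arrays.

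In the JNK and p38 cascades, which DUSP10 acts on, 5 of 22 genes (22.7%) passed with IL-1β and the median was 0.08. MAP3K5, a kinase at the head of both cascades, rose by 1.88 and MAP2K3, which activates p38, by 1.31. MAP2K6, also an activator of p38, fell by 2.09 and MAPKAPK3, a kinase downstream of p38, by 0.88, both on the log2 scale. The JNK gene MAPK10 was called lower, but was well above background on all 4 control arrays and on 1 IL-1β array, so no size is given. With Empa, 0 genes of these 4 lists passed the adjusted test, and 3, 3, 0 and 2 genes of the ERK cascade, ERK target, other regulator and JNK and p38 lists had an unadjusted p under 0.05, against 12% of all genes.

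**Figure D4:**
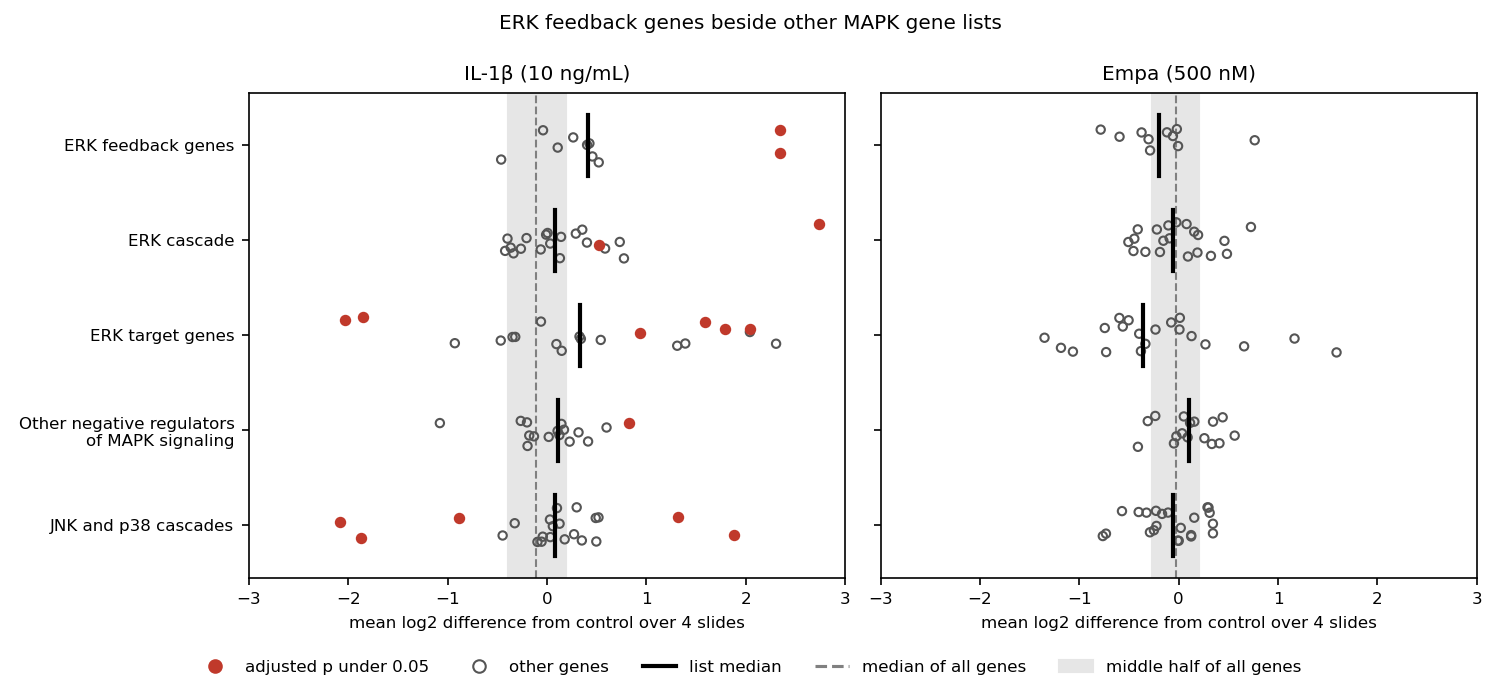
Mean log2 difference from control over 4 slides (x axis) of each tested gene, by list (y axis), with IL-1β on the left and Empa on the right; filled points passed the adjusted threshold, thick bars are list medians, the dashed line is the median of all genes and the shaded band their middle 50%. With IL-1β the feedback genes had the highest of the 5 list medians (0.42), with DUSP5 and DUSP10 far to the right of the other feedback genes, and with Empa no filled point appears.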

How the data were processed

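RNA of 12 cultures was hybridized to one-color Agilent arrays, 1 array each. Per the file headers, the authors read the scans with Feature Extraction 9.5.3.1, which subtracted the background and detrended each array, and deposited the signal intensity of every spot without normalization between arrays. A second table that the authors deposited holds log2 values described as quantile-normalized and was used as an alternative. Here, control spots (1377 of 44495) and outlier spots were left out, repeated spots averaged, and signals scaled to the 75th percentile of the array, floored at 1 unit and converted to log2. Signals at or below 0 before flooring made up 11.5% to 16.2% of an array's spots, which affects dim probes. A value was required on all 12 arrays. For each gene the brightest probe was kept among those well above background (in over 0.5 of the spots) on both arrays of at least 1 group. Probe positions in the annotation are on hg19.

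limma 3.58.1 in R 4.3.3 was fitted with the slide (line and replicate number) as a fixed block and 1 effect per treatment (6 residual degrees of freedom). Line differences used 1 effect of each treatment per line. P-values were adjusted by Benjamini-Hochberg over 15717 genes, with a threshold of 0.05. The arrays were paired by the slide they lay on. Residuals from the group means correlated within slides with r between 0.627 and 0.895, but this cannot test the pairing. With 2 arrays per group, the residuals of replicates 1 and 2 mirror each other. Arrays sharing a line label were also less alike than arrays of different labels, which alone makes the arrays of a slide deviate together. The slides of replicate 1 were scanned on one day and those of replicate 2 on another. The array number limits the precision.

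Alternatives were no replicate block, the slide as a random block, quantile normalization, normexp (offset 50), the authors' table, other filters and floors, single arrays or slides left out, the slides of 1 replicate number alone, and the methods' t-test, which the study states for its other assays. The procedure was tested on simulated data. The rule for named genes took the 10 members with every probe, the 2 genes most like each (1 of these is not reported here), and up to 4 called genes per list, treatment and direction. Members and lists were chosen with earlier results of these data known.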

Additional observations from a re-analysis of the deposited data

Results flagged for a closer look

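SPRED1 with Empa on HK-2 slide 2 lay apart from the other slides, at a log2 difference of 1.50, where the others lay between 0.43 and 0.61. SPRED2 with Empa on HK-2 slide 1 lay apart as well, at -1.57, where the others lay between 0.08 and 0.20. The gap to the nearest slide was 0.838 and 0.934 of the range, above Dixon's 95% critical value for 4 values. Chance gives such a gap in about 1 in 20 sets, and 20 sets were examined.

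SPRY1 moved in opposite directions in the arrays labelled by line under IL-1β, lower on both HK-2 slides and higher on both RPTEC/TERT1 slides, a difference of 0.95 (RPTEC/TERT1 minus HK-2). The test of this difference did not pass (limma, unadjusted p = 0.111, adjusted p of 1.00), and its second probe did not show it.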

How the results depend on the processing

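With IL-1β, 2 feedback genes were called. The count was 0 without the replicate block, with the slides of replicate 1 alone, with those of replicate 2 alone and by the methods' t-test, and 1 (DUSP5) with the slide as a random block, after normexp and without a filter on dim probes. With arrays or slides left out in turn it lay between 0 and 2. Over all genes, calls with IL-1β numbered 8 without the replicate block, 666 with the random block and 46 by the methods' t-test, against 1955. DUSP5 kept its direction in every alternative, with an adjusted p between 0.00287 and 0.635, as did DUSP10, between 0.0178 and 0.712. The count for Empa and those for line differences were 0 in each alternative run for them. Line differences were not run with the slides of 1 replicate number or by the methods' t-test, and the one in control cells was also not run with a block or without whole slides.

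Of the means that did not pass the test, some turned sign. Quantile normalization gave 0.00862 for SPRY1 with IL-1β and 0.0011 for DUSP6 with Empa. Normexp gave -0.0196 for SPRED2 with IL-1β, and 0.0158 for DUSP10 and 0.0148 for SPRED2 with Empa. In the values tabulated by the authors SPRED2 was at 0.00948 with Empa. The slides of replicate 1 alone gave 0.0146 for SPRY1 with IL-1β and, with Empa, 0.0368 for DUSP10 and 0.0235 for SPRY1. Those of replicate 2 alone gave -0.00617 for DUSP4 with IL-1β and, with Empa, 0.0509 for DUSP1, 0.106 for DUSP6 and 0.17 for SPRED2. With arrays or slides left out, the IL-1β means ranged from -0.27 to 0.19 for SPRY1, from -0.0377 to 0.905 for SPRY4 and from -0.10 to 0.32 for SPRED2. The Empa means ranged from -0.11 to 0.13 for DUSP1, from -0.11 to 0.12 for DUSP6, from -0.58 to 0.27 for DUSP10, from -0.27 to 0.17 for SPRY1, from -0.47 to 0.14 for SPRED2 and, with no change of sign, from -1.20 to -0.15 for SPRY4. The cause was not tested.

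Each group holds 2 arrays, and values of dim probes rest on the background that was subtracted.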
